A study of Homo sapiens with 12 samples.

Results

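MDA-MB-231, an established line grown from a metastatic breast cancer, was exposed to hydrogen peroxide (H2O2), and the expression of its genes was compared with that of cells that received no H2O2. The compared libraries were 2 from cells given control IgG with 100 µM H2O2 for 8 h and 2 from cells given control IgG, which makes 4 of the 12 libraries of the study. The genes described are the 13902 of 23686 in the deposited table that reached 1 TPM in 2 or more of the 12 libraries, with 54 small RNA genes that also passed left out. TPM is a transcript level scaled to gene length and to the library's total. Both groups carried the IgG, a non-specific immunoglobulin, so the comparison differs in H2O2 and in nothing else that the labels name. The other libraries were from MDA-MB-231 given the antibody anti-Hsp60N together with 100 µM H2O2, and from HCT116, a colon cancer line, under the same 3 treatments, with 2 libraries in each group. MDA-MB-231 was grown in DMEM and HCT116 in McCoy's 5A medium, both with 10% fetal bovine serum. Each line is 1 line from 1 tumour, and the labels do not tell whether replicate libraries stem from separate cultures. The p-values thus measure the spread between these libraries, which may be technical.

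Hydrogen peroxide is a small oxidant that cells also make themselves. It oxidises cysteines of KEAP1, the adaptor that marks the transcription factor NRF2 (gene NFE2L2) for degradation, and stabilised NRF2 raises genes of glutathione and thioredoxin metabolism. Damaged proteins release HSF1, which raises the cytosolic heat shock genes, and the integrated stress response raises ATF4 and its amino acid and stress targets. Peroxide also damages DNA, and checkpoints then hold cells before mitosis. Genes of DNA replication are transcribed early in the cycle under E2F factors, and genes of mitosis late, under the DREAM and MuvB complexes with B-MYB and FOXM1, which act through promoter letters called the cell cycle homology region (CHR) and through CCAAT boxes bound by NF-Y.

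Libraries of 1 group correlated at 0.994 to 0.996 (Pearson's r of log2 levels across genes) and libraries of different MDA-MB-231 groups at 0.993 to 0.995, and 12411 to 12499 genes reached 1 TPM in each of the 4 libraries. TPM keep no sequencing depth, so the depth behind a value is unknown. The 12 mesenchymal markers of MDA-MB-231 summed to 5214 and 5441 TPM with IgG and 4906 and 4949 TPM with H2O2, led by VIM, with SPARC under 1 TPM in all 4 libraries. Of the defining genes of other cell types, CDX1, CDX2 and DCN were listed at 0 in all 4 libraries, and ESR1, PGR, CDH1 and PTPRC stayed under 1 TPM. Other epithelial markers were expressed. The 8 luminal breast markers summed to 599 and 626 TPM with IgG and 526 and 536 TPM with H2O2, most of it KRT19. The 12 colon epithelial markers of HCT116 summed to 827 and 839 TPM with IgG and 745 and 750 TPM with H2O2. The 15 fibroblast, endothelial and immune markers summed to 198 and 199 TPM with IgG and 205 and 213 TPM with H2O2, nearly all of it CD68, a lysosomal gene that is not restricted to immune cells. The part of these levels in the results was not tested.

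H2O2 raised 181 genes and lowered 188, at a limma adjusted p under 0.05. This is 2.65% of the genes tested, 1.3% in the higher direction and 1.35% in the lower. Counts of raised and lowered genes of a list are to be read against these shares. The test used log2(TPM + 1), 6 group means over all 12 libraries and a shared estimate of the spread, and ± gives the standard error of that fit. A log2 change of 1 is a doubling on that scale, and the added 1 makes the change of weakly expressed genes look smaller. Changes were small: 3 genes rose at least 2-fold (HMOX1, DEFB103B and HSPA6) and 5 fell at least 2-fold (KIF20A, PIF1, PLK1, CCNB1 and SHISA3), while the median change was 0.35 among the raised genes and -0.45 among the lowered. All 369 genes had libraries that did not overlap between the groups, as did 30.4% of all genes in the higher and 17.3% in the lower direction. The median change of all genes was 0.03, and rescaling the libraries by median-of-ratios or quantiles turned the split of higher and lower genes from 181 and 188 into 154 and 277 or 157 and 240. The number of genes called depends on each library. Leaving out IgG replicate 1 gave 58 raised and 108 lowered genes, and leaving out IgG replicate 2 gave 102 and 80. Leaving out H2O2 replicate 1 gave 46 and 74, and leaving out H2O2 replicate 2 gave 44 and 71. In all 4 of those fits 30 of the raised and 60 of the lowered genes kept their calls. SHISA3, which went from 3.39 and 4.59 TPM to 1.52 and 1.01 TPM, and DEFB103B are named to complete these counts, after their values were seen. At an unadjusted p under 0.05 there were 2322 of the 13902 genes, and list counts at that threshold are to be read against this share. DEFB103B did not pass the test without IgG replicate 2 or without H2O2 replicate 1 (limma adjusted p from 0.051 to 0.067).

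**Figure D1:**
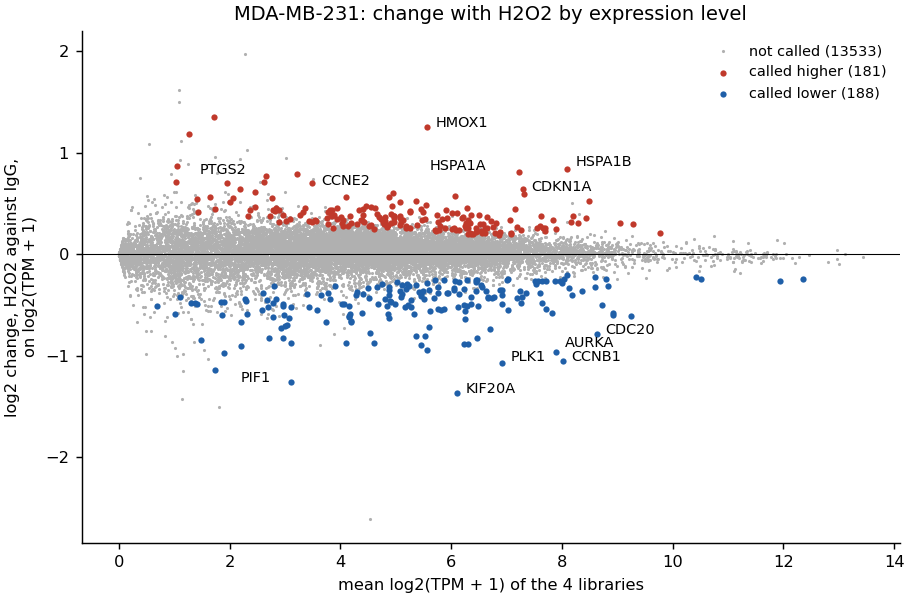
Each point is 1 of the 13902 genes, with its mean log2(TPM + 1) over the 4 libraries on the x axis and its log2 change with H2O2 on the y axis, on the log2(TPM + 1) scale. Red points are the 181 genes called higher and blue points the 188 called lower, and most of them lie within 1 log2 unit of the line of no change, with HMOX1 above it and KIF20A, PIF1, PLK1 and CCNB1 below it.

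The genes of mitosis fell together. Of the 54 genes of a published G2/M list, all of which passed the filter, 44 fell and 0 rose, against 1.35% of all genes that fell, and the list's median change was -0.48, against 0.03 for all genes. Libraries did not overlap, in the lower direction, for 51 of the 54, against 17.3% of all genes. The summed level of the list was 9234 and 9394 TPM with IgG and 6991 and 6970 TPM with H2O2, so the groups did not overlap and the pair of libraries in each group lay close to each other. At an unadjusted p under 0.05, 50 fell and 0 rose. FAM64A, a mitotic regulator that the list holds as PIMREG, fell from 59.9 and 58 TPM to 30.1 and 32.4 TPM. With 1 library left out, the number called lower was 29 to 39, lowest without H2O2 replicate 2. A bulk library does not tell fewer cells in mitosis from less RNA per cell.

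Promoters of 6 strongly lowered genes are shown because they hold letters known from late cell cycle genes. The 130 bases before the transcription start are given 5′ to 3′ (RefSeq, build GRCh38.p14), with TTTGAA or TTCGAA (CHR letters) and CCAAT, on either strand, in capitals. They are PLK1 at chr16:23678759-23678888 on the plus strand, CCNB1 at chr5:69167020-69167149 on the plus strand, CCNB2 at chr15:59105016-59105145 on the plus strand, CDC20 at chr1:43358851-43358980 on the plus strand, NEK2 at chr1:211675622-211675751 on the minus strand and KIF20A at chr5:138178982-138179111 on the plus strand. These windows were chosen after their letters were seen, so they do not stand for the lowered genes as a whole, and AURKA, UBE2C and FAM83D were not matched in the table.
PLK1: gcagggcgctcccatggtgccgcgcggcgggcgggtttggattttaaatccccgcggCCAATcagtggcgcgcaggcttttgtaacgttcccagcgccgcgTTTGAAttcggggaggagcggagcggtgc
CCNB1: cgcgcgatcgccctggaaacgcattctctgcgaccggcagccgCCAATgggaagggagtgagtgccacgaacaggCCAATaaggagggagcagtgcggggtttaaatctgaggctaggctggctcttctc
CCNB2: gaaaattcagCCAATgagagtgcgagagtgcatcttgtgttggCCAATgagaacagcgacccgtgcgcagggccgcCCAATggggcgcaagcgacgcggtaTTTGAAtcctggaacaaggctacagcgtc
CDC20: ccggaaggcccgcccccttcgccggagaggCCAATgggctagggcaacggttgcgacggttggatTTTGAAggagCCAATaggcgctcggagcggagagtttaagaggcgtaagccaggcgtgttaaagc
NEK2: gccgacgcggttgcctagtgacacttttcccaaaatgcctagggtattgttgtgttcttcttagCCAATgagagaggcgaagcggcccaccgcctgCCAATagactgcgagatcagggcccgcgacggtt
KIF20A: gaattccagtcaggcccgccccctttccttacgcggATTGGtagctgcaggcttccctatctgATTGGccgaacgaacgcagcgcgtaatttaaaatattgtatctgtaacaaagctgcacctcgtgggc
PLK1, CCNB2 and CDC20 hold both kinds of letters, while CCNB1, NEK2 and KIF20A hold 2 copies of CCAAT or of its complement ATTGG and no CHR letters in the bases shown. In CDC20 the CHR letters begin 65 bases before the start, and in PLK1 and CCNB2 they begin 29 bases before it.

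Windows of 300 bases, from 250 before to 50 after a start, were searched on both strands for the same letters. The table matched 156 of the 188 lowered genes (83%) with 210 windows and 148 of the 181 raised genes (81.8%) with 212 windows. TTTGAA or TTCGAA stood in 40.5% of windows of lowered genes, in 9.43% of those of raised genes, in 11.7% of the 15824 windows of tested genes and in 16.4% of all 35116 windows of the table. CCAAT stood in 56.7%, 44.3%, 34.7% and 34.6%, in the same order. Windows with both made up 30.5%, 4.72%, 4.68% and 6.38%. Of the tested genes 78.9% matched, so their shares describe the matched genes and not all that were tested. Among windows of the G2/M list, where 45 of 54 genes matched, 65.5% held TTTGAA or TTCGAA. In windows of lowered genes the match began within the 50 bases before the start in 15.2% and within the 50 bases after it in 11.9%, against 2.73% and 2.41% of all windows. A match of letters is a description and not a binding site.

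**Figure D2:**
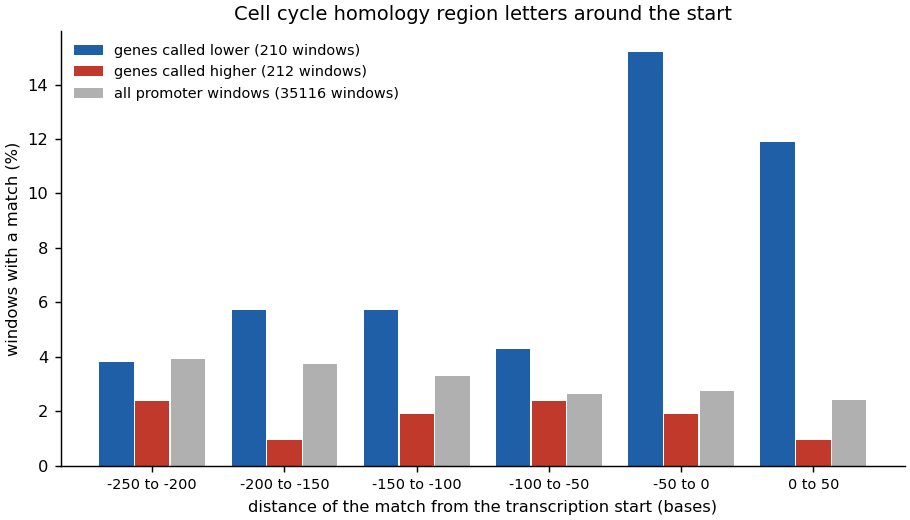
The y axis gives the percentage of promoter windows in which TTTGAA or TTCGAA begins in each 50-base interval, and the x axis the distance from the transcription start. Blue bars (genes called lower, 210 windows) stand at 15.2% just before the start and 11.9% just after it, while red bars (genes called higher, 212 windows) and grey bars (all 35116 windows) stay under 4% in every interval.

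Of 15 cyclins, kinases and switches that start mitosis, 8 fell and 1 rose (MYBL2), and CDK1 did not pass the test. CCNB1, the cyclin that activates CDK1 at mitotic entry, had 370.2 and 373 TPM in the IgG libraries and 181 and 176 TPM in the H2O2 libraries (log2 change -1.05 ± 0.07, limma adjusted p = 4.1e-05). Both H2O2 libraries lay below 200 TPM and both IgG libraries above 300. CCNB2, a second B cyclin, went from 118 and 116 TPM to 62.1 and 69.4 TPM, and CCNA2, the A cyclin of S phase and G2, went from 129 and 143 TPM to 105 and 107 TPM (log2 change -0.35). CDC25C, the phosphatase that removes the inhibitory phosphates of CDK1, fell from 22.4 and 21.7 TPM to 13.3 and 13.7 TPM. PLK1, the polo-like kinase of mitotic entry and spindle assembly, fell from 172 and 176 TPM to 80.7 and 84.1 TPM (log2 change -1.07 ± 0.05, limma adjusted p = 4.8e-06). BORA, the cofactor with which AURKA switches PLK1 on, fell from 19.9 and 24.9 TPM to 12.5 and 11 TPM. CDK1 itself stood at 187 and 189 TPM with IgG and 173 and 164 TPM with H2O2 (adjusted p = 0.25). The transcription factor FOXM1 stood at 112 and 108 TPM with IgG and 98.3 and 100.1 TPM with H2O2 (adjusted p = 0.25). MYBL2, which encodes B-MYB, rose from 69.7 and 74.8 TPM to 88.1 and 90.7 TPM. MYBL2 did not pass the test without IgG replicate 1 or without H2O2 replicate 1 or without H2O2 replicate 2 (limma adjusted p from 0.095 to 0.16). CCNA2 did not pass the test without IgG replicate 2 or without H2O2 replicate 1 or without H2O2 replicate 2 (limma adjusted p from 0.056 to 0.079).

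Of 19 aurora kinases, chromosomal passengers and spindle factors, 15 fell and 0 rose (median -0.48). AURKA, the kinase of centrosomes and spindle poles, fell from 330.3 and 334 TPM to 178 and 164 TPM (log2 change -0.96 ± 0.06, limma adjusted p = 3e-05), and both H2O2 libraries lay below 180 TPM. AURKB, the kinase of the chromosomal passenger complex, had 183 and 167 TPM with IgG and 150.0 and 146 TPM with H2O2, which did not pass (adjusted p = 0.08). CDCA8, the borealin subunit of that complex, fell from 133 and 133 TPM to 80.6 and 78.1 TPM. DLGAP5, which stabilises spindle fibres, fell from 96.1 and 106 TPM to 56.1 and 52.5 TPM, and PRC1, which bundles microtubules of the central spindle, from 139.5 and 146 TPM to 101 and 101 TPM. NEK2, a centrosome kinase, fell from 62.3 and 67.7 TPM to 34.7 and 31.9 TPM, and FAM83D, which brings a casein kinase to the spindle, from 105 and 108 TPM to 57.2 and 56.9 TPM. NUSAP1, a spindle protein, stood at 128 and 129.7 TPM with IgG and 116 and 109 TPM with H2O2 (adjusted p = 0.12).

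Kinesins are motors that walk on microtubules, some in mitosis and others in transport. Of 14 mitotic kinesins 12 fell, at a median of -0.41. Of 21 other kinesins 0 passed limma's test (3 at an unadjusted p under 0.05, 2 higher and 1 lower), at a median of 0.02. Both lists were drawn up with earlier results of these data known, and the difference between them was not tested. KIF20A, the motor that carries the passenger complex to the central spindle, had 110.5 and 110.0 TPM in the IgG libraries and 41.9 and 42.3 TPM in the H2O2 libraries (log2 change -1.37 ± 0.08, limma adjusted p = 2.4e-05), the largest fall among the 188 lowered genes. CENPE, the motor that brings chromosomes to the metaphase plate, fell from 30.9 and 33.2 TPM to 17.4 and 16.6 TPM. KIF18A, which dampens chromosome movements, fell from 33.9 and 37.3 TPM to 22.5 and 23 TPM, and KIF2C, a microtubule depolymerase of the centromere, from 154 and 159 TPM to 108 and 105 TPM. The mitotic motors KIF15 (15.5 and 16.1 TPM with IgG and 16.1 and 16 TPM with H2O2) and KIF2A (30.04 and 31.7 TPM with IgG and 33.1 and 32.2 TPM with H2O2) did not pass. Conventional kinesin KIF5B stood at 101 and 116 TPM with IgG and 102 and 98.1 TPM with H2O2 (adjusted p = 0.46). The light chain KLC2 stood at 111 and 116 TPM with IgG and 108 and 113 TPM with H2O2 (adjusted p = 0.85).

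Genes of mitotic exit and of the spindle checkpoint fell in part. Of 19 subunits and partners of the anaphase-promoting complex, the ligase that ends mitosis, 6 fell and 0 rose, and these were its activators CDC20 and FZR1, the conjugating enzymes UBE2C and UBE2S, the substrate PTTG1 and 1 core subunit, CDC27. CDC20, the activator that the checkpoint holds back, had 534 and 511 TPM in the IgG libraries and 305 and 301 TPM in the H2O2 libraries (log2 change -0.78 ± 0.06, limma adjusted p = 5.8e-05). The conjugating enzyme UBE2C fell from 769.8 and 720.3 TPM to 478 and 501 TPM and its partner UBE2S from 479.9 and 531 TPM to 351 and 361 TPM. PTTG1, the securin, fell from 523 and 494 TPM to 408 and 413 TPM, and the activator FZR1 fell from 37 and 40.4 TPM to 28.3 and 30.2 TPM. The core subunit ANAPC11 did not pass, at 158 and 154 TPM with IgG and 149.6 and 143 TPM with H2O2, nor did ANAPC5, at 101 and 106 TPM with IgG and 113 and 104 TPM with H2O2. Of 11 checkpoint genes, 3 fell. They were BUB1B (from 55.8 and 61.4 TPM to 39.3 and 39.5 TPM), BUB1 (from 119.9 and 130.3 TPM to 93.1 and 92.7 TPM) and TTK (from 50.4 and 53.5 TPM to 39 and 37.1 TPM). BUB3 and MAD2L1 did not pass (adjusted p = 0.12 and 0.81). CDC27 and FZR1 are named here as members of a short count, after their values were seen. FZR1 and PTTG1 did not pass the test whichever of the 4 libraries was left out (limma adjusted p from 0.06 to 0.2). UBE2S and CDC27 did not pass the test without IgG replicate 2 or without H2O2 replicate 1 or without H2O2 replicate 2 (limma adjusted p from 0.073 to 0.29). TTK did not pass the test without IgG replicate 2 or without H2O2 replicate 2 (limma adjusted p from 0.059 to 0.086).

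The kinetochore, the protein plate that joins chromosomes to the spindle, did not move as a whole. Of 27 genes, 6 fell and 3 rose, and the median change was -0.03. The 6 that fell were CENPA, the histone variant of centromeres (from 54.5 and 65.2 TPM to 34.7 and 32.7 TPM), HJURP, its chaperone (from 93.5 and 94 TPM to 71 and 68.7 TPM), the large kinetochore protein CENPF (from 66.1 and 73.3 TPM to 48.6 and 46.8 TPM), CENPE and 2 members of the NDC80 complex. Of these, NDC80 fell from 95.7 and 96 TPM to 69.2 and 66.4 TPM and NUF2 from 103 and 108 TPM to 77.1 and 70.6 TPM. CENPF, NUF2 and the 3 that rose are named after their values were seen. The 3 were MLF1IP (from 69.6 and 69.7 TPM to 93.3 and 83.3 TPM), CENPQ (from 29.9 and 28.1 TPM to 38.1 and 36.8 TPM) and DSN1 (from 71.6 and 74.1 TPM to 84 and 83.2 TPM). The list held 0 raised genes after either rescaling of the libraries. Among 20 condensin and cohesin genes 2 fell, SGOL2, the guardian of centromeric cohesion (from 31.8 and 37.3 TPM to 22.7 and 22.4 TPM), and NCAPD2, a condensin subunit (from 71.5 and 76 TPM to 57.1 and 59.5 TPM). CDCA5, the cohesin regulator sororin, rose from 130.3 and 135 TPM to 161 and 159 TPM. MLF1IP, CENPQ, DSN1, NCAPD2 and CDCA5 did not pass the test whichever of the 4 libraries was left out (limma adjusted p from 0.054 to 0.28). SGOL2 did not pass the test without H2O2 replicate 2 (limma adjusted p = 0.059).

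Genes of DNA replication rose. Of the 43 genes of a published S phase list, all of which passed the filter, 25 rose and 0 fell, against 1.3% of all genes that rose, and 41 of 43 changes were above 0, with a median of 0.31. Libraries did not overlap, in the higher direction, for 40 of the 43, against 30.4% of all genes. At an unadjusted p under 0.05, 38 rose and 0 fell. The list summed to 2726 and 2777 TPM with IgG and to 3379 and 3363 TPM with H2O2. The range of single changes over the 43 genes was -0.02 to 0.60 on the log2 scale. The number that rose was 13 without IgG replicate 1, 16 without IgG replicate 2, 12 without H2O2 replicate 1 and 11 without H2O2 replicate 2.

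The promoters of 4 of the raised replication genes are shown because they hold the letters of an E2F site, TTTCCCGC, TTTGGCGC or TTTCGCGC on either strand, in capitals. They are the 130 bases before the start (RefSeq, GRCh38.p14) of E2F1 at chr20:33686386-33686515 on the minus strand, PCNA at chr20:5126623-5126752 on the minus strand, GINS2 at chr16:85688955-85689084 on the minus strand and DTL at chr1:212035618-212035747 on the plus strand, chosen after the letters were seen. PCNA has a second start in the table whose window holds none of these letters.
E2F1: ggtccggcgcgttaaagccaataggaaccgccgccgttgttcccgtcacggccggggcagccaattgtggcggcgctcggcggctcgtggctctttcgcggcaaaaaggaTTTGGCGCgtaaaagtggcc
PCNA: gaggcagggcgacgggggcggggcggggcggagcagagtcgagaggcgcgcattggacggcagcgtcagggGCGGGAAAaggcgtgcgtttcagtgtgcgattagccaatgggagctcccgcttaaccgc
GINS2: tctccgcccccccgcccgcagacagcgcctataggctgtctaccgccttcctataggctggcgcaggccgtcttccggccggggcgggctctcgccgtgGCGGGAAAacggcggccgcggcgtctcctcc
DTL: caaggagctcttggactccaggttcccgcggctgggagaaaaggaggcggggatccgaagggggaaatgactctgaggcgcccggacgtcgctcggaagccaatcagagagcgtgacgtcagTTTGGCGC
The same letters stood in 14.6% of the windows of raised genes, in 1.9% of those of lowered genes, in 4.08% of those of tested genes and in 2.74% of all windows. For the S phase list alone 33 of its 43 genes (76.7%) matched the table, under the 80% set for a gene list, so its share is void.

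Among the factors that prepare and open origins, 11 of 19 rose and 1, DBF4, fell (from 28 and 29.7 TPM to 23.7 and 23.1 TPM). MCM2, a subunit of the helicase that unwinds DNA, had 49.1 and 51.6 TPM in the IgG libraries and 68.8 and 68.4 TPM in the H2O2 libraries (log2 change 0.44 ± 0.05, limma adjusted p = 0.0015). CDC6, the loader of that helicase, rose from 69.1 and 72.8 TPM to 93.6 and 92.9 TPM. GINS2, a subunit of the active helicase, rose from 40.3 and 39.4 TPM to 51.2 and 51 TPM, and its partner GINS3 from 18.5 and 19.4 TPM to 27.3 and 25.9 TPM. Of the other helicase subunits, MCM5 had 50.3 and 52.5 TPM with IgG and 56 and 62.4 TPM with H2O2 (adjusted p = 0.19). MCM6 had 30.2 and 32.7 TPM with IgG and 31.9 and 32.5 TPM with H2O2 (adjusted p = 0.82). At the fork, FEN1, the flap nuclease of Okazaki fragments, rose from 173 and 170.4 TPM to 227 and 221 TPM. PCNA, the sliding clamp, rose from 252 and 261 TPM to 334 and 333 TPM, and RRM2, the ribonucleotide reductase subunit, from 116 and 127 TPM to 164 and 167 TPM. CLSPN, which relays replication stress to CHEK1, rose from 19.6 and 20.7 TPM to 27.8 and 28.3 TPM. EXO1, a nuclease of mismatch and break repair, had 23 and 23.2 TPM in the IgG libraries and 34.2 and 35.1 TPM in the H2O2 libraries (log2 change 0.57 ± 0.06, limma adjusted p = 0.00067). DTL, which marks licensing factors for degradation, rose from 30.6 and 33 TPM to 43.2 and 42.9 TPM. DBF4, PCNA and DTL are named after their values were seen. TYMS, the thymidylate synthase, stood at 242 and 247 TPM with IgG and 277 and 270.1 TPM with H2O2 (adjusted p = 0.099). DBF4 did not pass the test whichever of the 4 libraries was left out (limma adjusted p from 0.11 to 0.28). DTL did not pass the test without IgG replicate 1 or without H2O2 replicate 1 or without H2O2 replicate 2 (limma adjusted p from 0.073 to 0.076).

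Of 19 regulators of the step from G1 to S, 3 rose and 1 fell. CCNE2, the cyclin E that activates CDK2, had 23.4 and 24.8 TPM in the IgG libraries and 35.9 and 38.2 TPM in the H2O2 libraries (log2 change 0.60 ± 0.08, limma adjusted p = 0.0029). Its sister CCNE1 stood at 24.2 and 25.8 TPM with IgG and 23.6 and 25.6 TPM with H2O2 (adjusted p = 0.91). E2F1, the activator of replication genes, rose from 67.3 and 63.1 TPM to 90.7 and 89.3 TPM, and CDC25A, the phosphatase of CDK2, from 32.3 and 31.5 TPM to 39.8 and 38.2 TPM. CDKN2C, an inhibitor of CDK4 and CDK6, fell from 60.7 and 60.6 TPM to 46.7 and 46 TPM. CCND1, the cyclin of G1, stood at 304 and 344 TPM with IgG and 310.5 and 328 TPM with H2O2. Of the 20 replication-dependent histone genes that passed the filter, 0 were called by limma and 2 had an unadjusted p under 0.05, 1 in each direction (median -0.15, unlike the 0.31 of the S phase list). Their messages lack a poly(A) tail, so their TPM depend on how libraries select RNA, which the sources used here do not give. CDC25A and CDKN2C did not pass the test whichever of the 4 libraries was left out (limma adjusted p from 0.075 to 0.18). E2F1 did not pass the test without IgG replicate 2 or without H2O2 replicate 1 (limma adjusted p from 0.052 to 0.061).

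Of 32 genes of the DNA damage response, 4 rose and 0 fell, against 1.3% of all genes that rose. BRCA1, a factor of homologous recombination, rose from 12.6 and 11.4 TPM to 15.9 and 15.8 TPM. LIG1, the replicative ligase, rose from 33.3 and 34.7 TPM to 39.5 and 42.6 TPM, and CLSPN, described above, is also on the list. PARP1, a sensor of DNA breaks, had 103 and 107 TPM with IgG and 111 and 111 TPM with H2O2 and did not pass. APEX1, the abasic-site nuclease, had 232 and 225 TPM with IgG and 236 and 236 TPM with H2O2 and did not pass. LIG1 did not pass the test whichever of the 4 libraries was left out (limma adjusted p from 0.076 to 0.29). BRCA1 did not pass the test without IgG replicate 2 or without H2O2 replicate 1 or without H2O2 replicate 2 (limma adjusted p from 0.087 to 0.12).

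**Figure D3:**
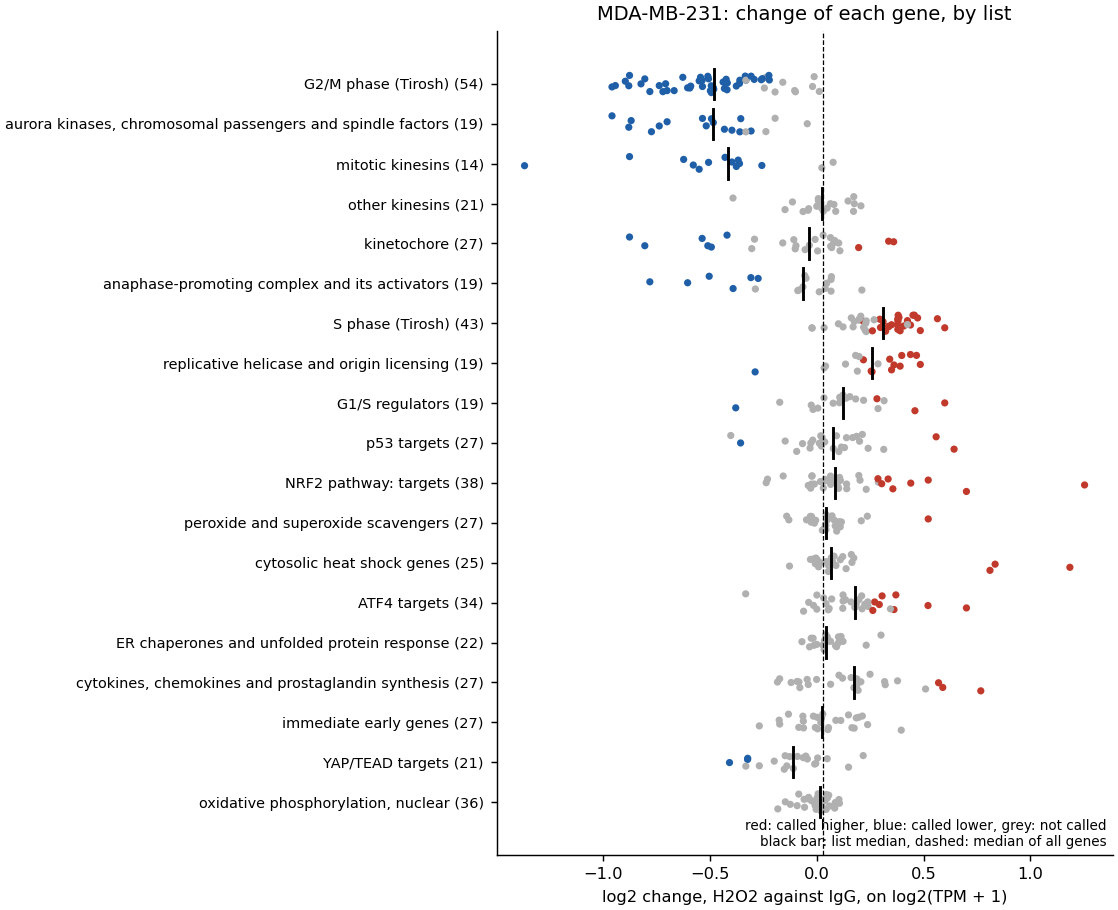
Each point is the log2 change with H2O2 of 1 gene, on the log2(TPM + 1) scale, and each row 1 gene list with the number of genes measured in brackets. Red points are genes called higher, blue points genes called lower, black bars list medians and the dashed line the median of all genes; the G2/M list is centred at -0.48, the S phase list at 0.31 and oxidative phosphorylation at 0.02.

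Of 27 p53 targets, 2 rose and 1 fell, against 1.3% and 1.35% of all genes, and the median was 0.08. CDKN1A, the p21 inhibitor of cyclin-dependent kinases, had 122 and 127 TPM in the IgG libraries and 191 and 199 TPM in the H2O2 libraries (log2 change 0.64 ± 0.04, limma adjusted p = 3.9e-05). Both H2O2 libraries lay above 190 TPM and both IgG libraries below 130. GDF15, a secreted stress factor, rose from 4.57 and 4.58 TPM to 7.05 and 7.38 TPM. CCNG1, a cyclin-like p53 target, fell from 50.6 and 56.9 TPM to 43 and 40.3 TPM. MDM2, a ubiquitin ligase, had 16.4 and 16.7 TPM with IgG and 17.6 and 18.1 TPM with H2O2 (adjusted p = 0.47). BAX, a pore-forming protein of apoptosis, had 235 and 218 TPM with IgG and 258 and 241 TPM with H2O2 (adjusted p = 0.28). CDKN1A and GDF15 passed the test and MDM2 and BAX did not; the difference between these genes was not tested. GDF15 and CCNG1 did not pass the test whichever of the 4 libraries was left out (limma adjusted p from 0.057 to 0.27).

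Among 38 NRF2 targets, 8 rose and 0 fell (median 0.09), against 1.3% of all genes that rose. Limma called 0 of the 7 regulators, and 1 had an unadjusted p under 0.05. HMOX1, the heme oxygenase that releases iron and biliverdin, had 29.3 and 30.2 TPM in the IgG libraries and 70.4 and 74.2 TPM in the H2O2 libraries (log2 change 1.25 ± 0.06, limma adjusted p = 4.5e-06). This was the largest rise among called genes with a mean of at least 5 TPM in a group. SLC7A11, the cystine importer, rose from 7.02 and 8.58 TPM to 13 and 13.5 TPM. TXNRD1, the reductase of thioredoxin, had 284 and 317 TPM in the IgG libraries and 423 and 439 TPM in the H2O2 libraries (log2 change 0.52 ± 0.06, limma adjusted p = 0.0011). SRXN1, which repairs overoxidised peroxiredoxins, rose from 118 and 119.6 TPM to 148 and 152 TPM. Both subunits of glutamate-cysteine ligase rose, the first step of glutathione synthesis: GCLM from 49.5 and 55.8 TPM to 67.6 and 67.7 TPM and GCLC from 16.8 and 15.8 TPM to 23.8 and 21.3 TPM. GSR, the glutathione reductase, rose from 36.1 and 37.4 TPM to 45.2 and 44.8 TPM, and SQSTM1, an autophagy receptor, from 466 and 481 TPM to 575 and 594 TPM. NQO1, a quinone reductase and common marker of NRF2 activity, stood at 230.4 and 232 TPM with IgG and 245 and 242 TPM with H2O2 (adjusted p = 0.36). Among the regulators, NFE2L2 had 90.9 and 94 TPM with IgG and 98.6 and 99.4 TPM with H2O2, and KEAP1 had 103 and 110.2 TPM with IgG and 110.1 and 116 TPM with H2O2. FTL, the light chain of ferritin, had 8031 and 7816 TPM with IgG and 8204 and 8053 TPM with H2O2 (adjusted p = 0.73). FTH1, the heavy chain, had 3629.5 and 3566 TPM with IgG and 3967 and 3964 TPM with H2O2 (adjusted p = 0.15). GCLC and GSR are named to complete the 8, after their values were seen. GSR and SQSTM1 did not pass the test whichever of the 4 libraries was left out (limma adjusted p from 0.051 to 0.12). GCLM did not pass the test without IgG replicate 1 or without H2O2 replicate 1 or without H2O2 replicate 2 (limma adjusted p from 0.13 to 0.14). GCLC did not pass the test without H2O2 replicate 1 (limma adjusted p = 0.063).

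The antioxidant response element is written here as TGACNNNGC. It is shown in capitals, on either strand, in 130 bases before a start (RefSeq, GRCh38.p14) of TXNRD1 at chr12:104286902-104287031 on the plus strand, the second of 2 starts, and GCLM at chr1:93909431-93909560 on the minus strand, chosen after the letters were seen.
TXNRD1: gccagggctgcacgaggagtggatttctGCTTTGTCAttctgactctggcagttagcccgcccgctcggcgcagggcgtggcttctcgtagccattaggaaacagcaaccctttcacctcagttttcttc
GCLM: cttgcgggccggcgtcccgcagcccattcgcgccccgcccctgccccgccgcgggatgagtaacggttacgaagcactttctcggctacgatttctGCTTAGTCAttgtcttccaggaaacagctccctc
These letters are common: they stood in 17.9% of windows of raised genes, 13.3% of those of lowered genes, 14.6% of those of tested genes and 13.3% of all windows. The table matched 28 of the 38 NRF2 targets (73.7%), also under 80%, so the share for that list is void.

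Of 27 peroxide and superoxide scavengers only TXNRD1 was called, and the list's median was 0.04. PRDX1, an abundant peroxiredoxin, stood at 1739 and 1661 TPM with IgG and 1710.2 and 1663 TPM with H2O2 (adjusted p = 0.96). TXN, the thioredoxin, stood at 1179 and 1146 TPM with IgG and 1236 and 1267 TPM with H2O2 (adjusted p = 0.3). Among 22 genes of iron and heme, 2 rose, HMOX1 and ALAS1, the first enzyme of heme synthesis (from 65.5 and 62.1 TPM to 75.7 and 74.8 TPM). Among 8 metallothioneins and zinc genes, MT1E rose (from 556 and 569 TPM to 682 and 702 TPM). The most abundant, MT2A, had 4936 and 4858 TPM with IgG and 4406 and 4803 TPM with H2O2 (adjusted p = 0.41). Metallothionein genes are near-identical copies, so their split is uncertain. After rescaling by median-of-ratios neither ALAS1 nor MT1E passed. Of 24 autophagy and lysosome genes, 3 rose: SQSTM1, GABARAPL1, an ATG8 protein of autophagosomes (from 25.5 and 24.3 TPM to 35.4 and 34.5 TPM), and GLA, a lysosomal galactosidase (from 93.4 and 83.7 TPM to 104 and 108 TPM). MT1E did not pass the test whichever of the 4 libraries was left out (limma adjusted p from 0.1 to 0.22). ALAS1 and GLA did not pass the test without IgG replicate 2 or without H2O2 replicate 1 or without H2O2 replicate 2 (limma adjusted p from 0.086 to 0.29).

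Of 25 cytosolic heat shock genes, 3 rose and 0 fell, and the 3 are inducible Hsp70 genes. At an unadjusted p under 0.05, 7 were higher and 0 lower, and 20 of the 25 changes were above 0. Of all 13902 genes, 2322 had such a p in either direction. HSPA1B had 193 and 213 TPM in the IgG libraries and 353 and 373 TPM in the H2O2 libraries (log2 change 0.84 ± 0.07, limma adjusted p = 0.00023). HSPA1A had 107 and 116 TPM in the IgG libraries and 196 and 196 TPM in the H2O2 libraries (log2 change 0.81 ± 0.09, limma adjusted p = 0.00068). HSPA6, a strictly inducible Hsp70, had 0.58 and 0.61 TPM in the IgG libraries and 2.94 and 2.34 TPM in the H2O2 libraries (log2 change 1.19 ± 0.11, limma adjusted p = 0.0003). Of the compared libraries, only those with H2O2 reached the filter of 1 TPM for HSPA6, so its call rests on a low level. The fit shares its spread with HCT116 libraries near 0 TPM, which vary little, so its adjusted p can be too small. The groups did not overlap in any of the 3, as in all 369 called genes and, in the higher direction, in 30.4% of all genes. HSPA1A and HSPA1B encode nearly the same protein from neighbouring copies, so the division of reads between them is uncertain. The constitutive Hsp70 HSPA8 had 2449.9 and 2588 TPM with IgG and 2694 and 2741 TPM with H2O2 (adjusted p = 0.3). The cochaperone DNAJB1 had 146 and 155 TPM with IgG and 169 and 169 TPM with H2O2 (adjusted p = 0.13). HSP90AB1, a constitutive Hsp90, had 2142 and 2118 TPM with IgG and 2190.2 and 2124 TPM with H2O2 (adjusted p = 0.92). The median of the list was 0.07, against 0.03 for all genes. After rescaling by median-of-ratios these medians were 0.04 and 0.0002. In the mitochondria, HSPD1, which encodes Hsp60, stood at 633 and 666 TPM with IgG and 709 and 687 TPM with H2O2. Its partner HSPE1 stood at 419.7 and 398 TPM with IgG and 432 and 443 TPM with H2O2. Limma called 0 of 15 mitochondrial chaperones and proteases and 0 of 8 CCT chaperonin subunits, of which 4 and 2 were higher at an unadjusted p under 0.05.

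Heat shock elements are inverted repeats of GAA, written here as GAANNTTC. They are in capitals in the 130 bases before the start (RefSeq, GRCh38.p14) of the 3 raised genes, HSPA1A at chr6:31815413-31815542 on the plus strand, HSPA1B at chr6:31827608-31827737 on the plus strand and HSPA6 at chr1:161524410-161524539 on the plus strand, which are printed because they are the 3 that rose.
HSPA1A: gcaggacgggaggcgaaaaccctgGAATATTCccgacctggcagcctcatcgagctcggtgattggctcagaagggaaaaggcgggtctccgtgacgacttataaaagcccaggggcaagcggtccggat
HSPA1B: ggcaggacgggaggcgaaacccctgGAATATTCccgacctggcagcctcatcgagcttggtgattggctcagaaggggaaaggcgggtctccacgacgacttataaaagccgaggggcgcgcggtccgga
HSPA6: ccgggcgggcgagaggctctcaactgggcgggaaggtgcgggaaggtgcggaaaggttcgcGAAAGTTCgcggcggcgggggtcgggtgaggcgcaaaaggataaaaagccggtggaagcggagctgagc
The HSPA1A and HSPA1B windows carry the letters GAATATTC at 106 and 105 bases before the start, and HSPA6 GAAAGTTC at 69 bases. Of the windows of the heat shock list (24 of 25 genes matched), 41.7% held GAANNTTC, against 5.03% of windows of tested genes and 6.77% of all windows, so the letters were also present at genes of the list that were not called.

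Of 34 ATF4 targets, 8 rose and 0 fell, against 1.3% of all genes that rose, with a list median of 0.18. ATF4, the transcription factor itself, rose from 306 and 304 TPM to 396 and 389.8 TPM (log2 change 0.36 ± 0.05, limma adjusted p = 0.005). AARS, an alanyl-tRNA synthetase, rose from 64.1 and 64.9 TPM to 84.5 and 82.8 TPM. MTHFD2, the mitochondrial folate enzyme, rose from 33 and 33.5 TPM to 49 and 47.3 TPM, and TRIB3, a pseudokinase, from 19.97 and 20.5 TPM to 25.3 and 24.8 TPM. DDIT3, which encodes the death-linked factor CHOP, stood at 43.5 and 45.1 TPM with IgG and 48.2 and 43.2 TPM with H2O2 (adjusted p = 0.89). CHAC1, which degrades glutathione, stood at 8.05 and 6.62 TPM with IgG and 7.31 and 8.14 TPM with H2O2 (adjusted p = 0.79). SLC3A2, the partner chain of SLC7A11, stood at 288 and 295 TPM with IgG and 330.2 and 329.6 TPM with H2O2 (adjusted p = 0.088). Of 22 endoplasmic reticulum chaperones and genes of the unfolded protein response, limma called 0 (1 at an unadjusted p under 0.05). CALR, calreticulin, had 1786 and 1821 TPM with IgG and 1788 and 1776 TPM with H2O2. HSP90B1, the Hsp90 of that compartment, had 780.1 and 808 TPM with IgG and 823 and 797 TPM with H2O2. TRIB3 did not pass the test whichever of the 4 libraries was left out (limma adjusted p from 0.079 to 0.17). ATF4 did not pass the test without H2O2 replicate 1 (limma adjusted p = 0.06).

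Of 27 cytokines, chemokines and genes of prostaglandin synthesis, 3 rose, against 1.3% of all genes. PTGS2, the inducible cyclooxygenase, had 3.81 and 3.89 TPM in the IgG libraries and 7.25 and 7.27 TPM in the H2O2 libraries (log2 change 0.77 ± 0.09, limma adjusted p = 0.0013), a low level at which the pseudocount lowers the fold. IL6 had 131 and 127 TPM in the IgG libraries and 187 and 202 TPM in the H2O2 libraries (log2 change 0.59 ± 0.07, limma adjusted p = 0.0017). CSF3, the granulocyte growth factor, rose from 49.9 and 58.7 TPM to 77.1 and 84.8 TPM. With a pseudocount of 0.1 neither IL6 nor CSF3 passed. The neutrophil chemokine IL8 had 234 and 256 TPM with IgG and 299 and 311 TPM with H2O2 (adjusted p = 0.17). CXCL1 had 347 and 372 TPM with IgG and 401 and 418 TPM with H2O2 (adjusted p = 0.67). CD83, a surface protein of activated immune cells, rose from 12.6 and 13.7 TPM to 19.7 and 20.2 TPM. Limma called 0 of 19 genes of NF-kappaB and its feedback, 0 of 31 interferon genes and 0 of 27 immediate early genes. Of these, 7, 4 and 5 had an unadjusted p under 0.05, against 2322 of all 13902 genes. FOS, an immediate early factor, had 2.01 and 2.53 TPM with IgG and 1.86 and 1.92 TPM with H2O2, and EGR1, another, had 4.3 and 4.5 TPM with IgG and 4.74 and 5.24 TPM with H2O2. JUN had 87.6 and 98.7 TPM with IgG and 93.2 and 95.7 TPM with H2O2, and TNIP1, an inhibitor of NF-kappaB, had 287 and 296 TPM with IgG and 298 and 302 TPM with H2O2. Of 16 phosphatases and sprouty genes that restrain MAP kinases, DUSP5 alone rose (from 79 and 75.2 TPM to 88 and 89.8 TPM), and after either rescaling of the libraries it did not pass. DUSP1 had 21.2 and 24.6 TPM with IgG and 23.9 and 25.4 TPM with H2O2, and DUSP6 had 150.1 and 164 TPM with IgG and 148 and 152 TPM with H2O2. DUSP5 did not pass the test whichever of the 4 libraries was left out (limma adjusted p from 0.084 to 0.28). CD83 did not pass the test without IgG replicate 1 or without H2O2 replicate 1 or without H2O2 replicate 2 (limma adjusted p from 0.063 to 0.092). CSF3 did not pass the test without IgG replicate 1 or without H2O2 replicate 2 (limma adjusted p from 0.061 to 0.11).

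Some genes of YAP, TGF-beta and the cytoskeleton fell. Of 21 YAP/TEAD targets 3 fell, against 1.35% of all genes, and 17 of 21 changes were below 0. The 3 were AJUBA, a LIM protein (from 103 and 105 TPM to 84 and 82 TPM), ANKRD1 (from 425 and 436 TPM to 345 and 343 TPM) and TGFB2 (from 46.2 and 52.8 TPM to 36.6 and 37.4 TPM). CYR61, a secreted matrix protein, stood at 897 and 921 TPM with IgG and 909 and 913 TPM with H2O2 (adjusted p = 1). Of 19 TGF-beta genes 2 fell, TGFB2 and BMP4 (from 326 and 339 TPM to 243 and 261 TPM). Of 15 tubulins 2 fell, TUBA1C (from 1614 and 1577 TPM to 1335 and 1363 TPM) and TUBB4B (from 1474 and 1507 TPM to 1252 and 1299 TPM). TUBB, with 2532 and 2459 TPM with IgG and 2478 and 2436 TPM with H2O2, did not pass. KRT19, a keratin, fell from 476 and 489 TPM to 403 and 411 TPM. Of 23 cholesterol genes HSD17B7 (from 13.3 and 10.7 TPM to 7.17 and 8.92 TPM) and MVK, the mevalonate kinase (from 23 and 23.5 TPM to 17.3 and 17.6 TPM), fell. AJUBA, ANKRD1, TGFB2, BMP4, TUBA1C, TUBB4B, KRT19 and MVK did not pass the test whichever of the 4 libraries was left out (limma adjusted p from 0.052 to 0.26). HSD17B7 did not pass the test without IgG replicate 1 or without H2O2 replicate 1 or without H2O2 replicate 2 (limma adjusted p from 0.058 to 0.29).

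Other genes among the 15 largest changes in each direction belong to none of the lists. Higher with H2O2 were PINLYP (from 5.29 and 6.9 TPM to 10.8 and 11.7 TPM), HYAL3, a hyaluronidase-family gene (from 4.24 and 3.43 TPM to 7.66 and 6.17 TPM), and TRAF3IP2-AS1 (from 4.34 and 2.75 TPM to 6.12 and 5.54 TPM). The last is an antisense gene whose reads cannot be told from those of its partner, since no source used here gives the strand setting. PIF1, a DNA helicase, fell from 12 and 12.7 TPM to 4.74 and 4.38 TPM (log2 change -1.26 ± 0.08, limma adjusted p = 2.4e-05). ALPP, a placental alkaline phosphatase with near-identical relatives, fell from 4.87 and 5.81 TPM to 2.67 and 2.12 TPM. Lower as well were TNFAIP8L1 (from 10.5 and 10.8 TPM to 5.08 and 5.64 TPM) and TMEM71 (from 7.24 and 8.15 TPM to 3.32 and 4.58 TPM). DEFB103B, a beta-defensin with a near-identical copy, had the largest rise of all called genes at a low level, 1.61 and 0.64 TPM in the IgG libraries and 5.46 and 3.3 TPM in the H2O2 libraries, and is named after its values were seen. PINLYP did not pass the test without IgG replicate 1 or without H2O2 replicate 1 or without H2O2 replicate 2 (limma adjusted p from 0.085 to 0.15). TRAF3IP2-AS1 did not pass the test without IgG replicate 2 or without H2O2 replicate 1 or without H2O2 replicate 2 (limma adjusted p from 0.12 to 0.25). HYAL3 and TMEM71 did not pass the test without IgG replicate 2 or without H2O2 replicate 1 (limma adjusted p from 0.063 to 0.16).

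**Figure D4:**
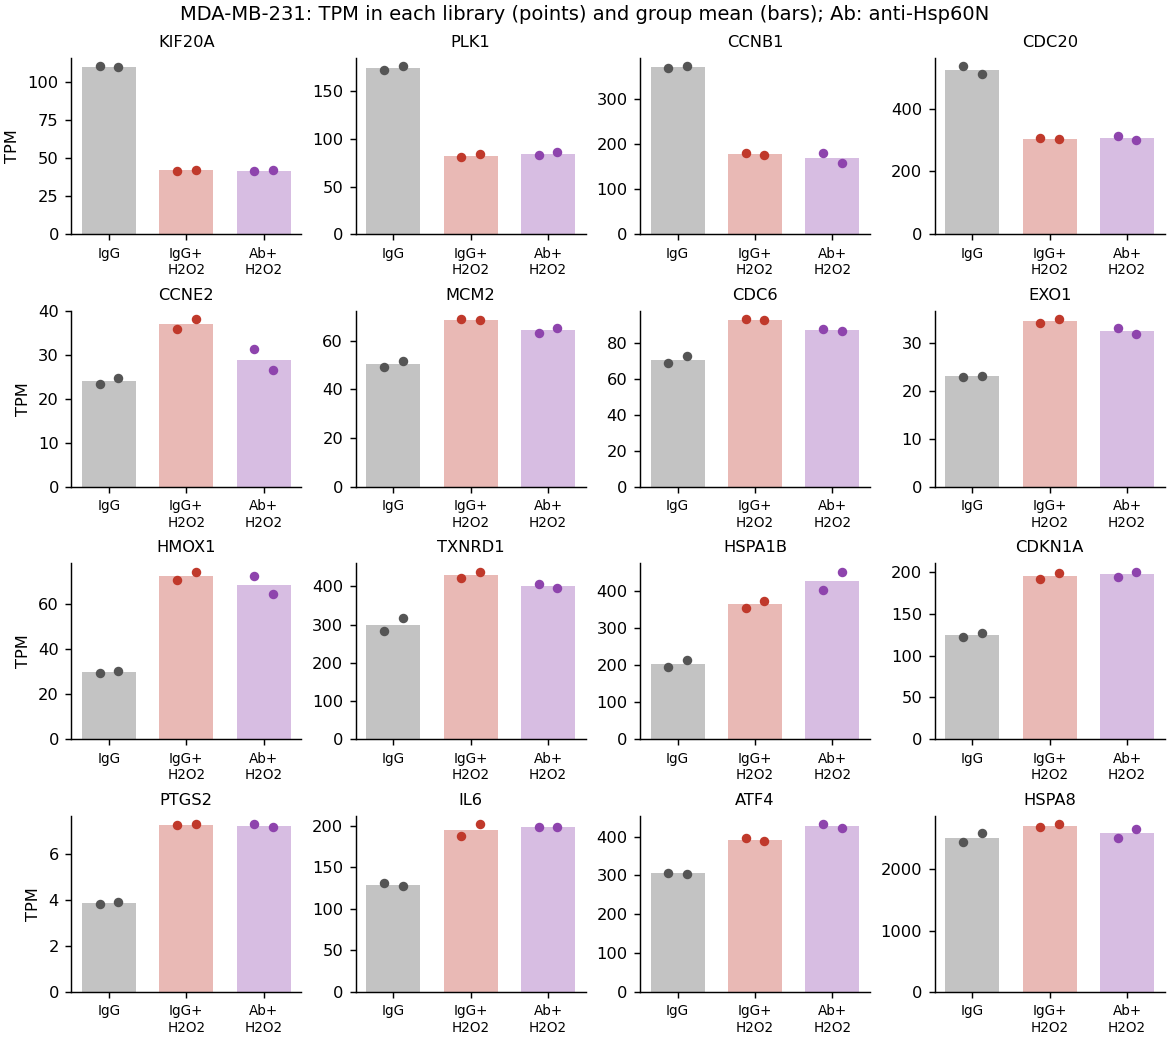
Points are the TPM of single MDA-MB-231 libraries and bars group means, for IgG, IgG with H2O2 and anti-Hsp60N (Ab) with H2O2; each y axis starts at 0 and has its own scale. KIF20A, PLK1, CCNB1 and CDC20 are lower in both H2O2 groups, HMOX1, TXNRD1, HSPA1B and CDKN1A are higher in both, and HSPA8 did not pass the test.

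Limma called 0 genes in lists of the BCL2 family (18 genes), death receptors and caspases (20), glycolysis (22), hypoxia-type genes (18), nuclear-encoded oxidative phosphorylation (36), ribosome biogenesis (24), EGFR ligands and receptors (9) or matrix and adhesion (34). Their medians lay between -0.02 and 0.09 on the log2 scale. Of all genes, 2.65% were called, so 0 called genes in a short list is common. The numbers with an unadjusted p under 0.05 were 6, 5, 1, 2, 1, 5, 3 and 5, in the same order. Of all 13902 genes, 2322 had such a p. BCL2L1, a survival protein, had 384 and 396 TPM with IgG and 352 and 357 TPM with H2O2 (adjusted p = 0.25). GAPDH, a glycolytic enzyme, had 5098 and 4912 TPM with IgG and 4954 and 4899.7 TPM with H2O2 (adjusted p = 0.91). VEGFA, a growth factor of vessels, had 161 and 170.2 TPM with IgG and 189 and 189 TPM with H2O2 (adjusted p = 0.15). COX7C, a subunit of cytochrome oxidase, had 1211 and 1102 TPM with IgG and 1200.4 and 1134 TPM with H2O2 (adjusted p = 0.98).

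Cells that received anti-Hsp60N in place of IgG together with H2O2 give another pair of H2O2-exposed libraries. They are set against the same IgG libraries, so their agreement with the first comparison is not independent, and the antibody differs as well. In that comparison 473 genes were called (3.4%), 210 higher (1.51%) and 263 lower (1.89%). The G2/M list had 44 of 54 genes lower and the S phase list 14 of 43 higher and 2 lower (MCM6 and CDCA7, named after their values were seen), with medians of -0.49 and 0.21. KIF20A was at 41.4 and 42.1 TPM and CCNB1 at 179 and 158 TPM with antibody and H2O2, HMOX1 at 72.1 and 64.1 TPM and HSPA1B at 401 and 452 TPM. The log2 changes against IgG, first with IgG and H2O2 and then with antibody and H2O2, were -1.37 and -1.38 for KIF20A, -1.05 and -1.14 for CCNB1, 1.25 and 1.17 for HMOX1, 0.84 and 1.06 for HSPA1B, 0.64 and 0.66 for CDKN1A and 0.60 and 0.25 for CCNE2. CCNE2 was at 31.2 and 26.5 TPM with antibody and H2O2, against 35.9 and 38.2 TPM with IgG and H2O2; the difference between the 2 H2O2 groups was not tested here.

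The same dose and time in HCT116 called 4584 genes (33%), 15.5% higher and 17.5% lower. The difference between the lines in the log2 change was tested by the interaction in the same fit, which called 2420 genes (17.4%): 1354 with the change in MDA-MB-231 higher (9.74%) and 1066 with it lower (7.67%). Line and medium differ together and cannot be told apart. Of the 188 genes lowered in MDA-MB-231, 120 were also lowered in HCT116, 11 were raised there and 57 were not called. Of the 181 raised genes, 59 were raised in HCT116, 34 were lowered and 88 were not called. The test of the difference between lines was passed by 69 of the lowered and 131 of the raised genes. Both sets were chosen by the MDA-MB-231 change that is part of this difference, so these counts are no separate support for it. By the same test 17.4% of all genes differed. The number of such differences with a higher MDA-MB-231 change was 719 without MDA-MB-231 IgG replicate 1, 664 and 585 without MDA-MB-231 H2O2 replicate 1 or 2, and 777 and 832 without HCT116 H2O2 replicate 1 or 2. The number with a lower change was 703 and 662 without MDA-MB-231 H2O2 replicate 1 or 2.

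The G2/M list fell in both lines (median -0.48 in MDA-MB-231 and -0.43 in HCT116), and 11 of its 54 genes differed between them, 6 with a higher and 5 with a lower change in MDA-MB-231. KIF20A changed by -1.37 in MDA-MB-231 and -0.85 in HCT116 (difference -0.52 ± 0.12, limma adjusted p = 0.016). For CCNB1 the difference did not pass, with -1.05 in MDA-MB-231 and -0.75 in HCT116 (difference -0.30 ± 0.10, limma adjusted p = 0.07). PLK1 did not pass either, with -1.07 in MDA-MB-231 and -0.89 in HCT116 (difference -0.18 ± 0.08, limma adjusted p = 0.13). The S phase list parted: 30 of 43 genes differed, all 30 with the higher change in MDA-MB-231, where its median was 0.31, against -0.10 in HCT116. FEN1 changed by 0.38 in MDA-MB-231 and -0.35 in HCT116 (difference 0.73 ± 0.06, limma adjusted p = 7e-05). GINS2 changed by 0.35 in MDA-MB-231 and -0.40 in HCT116 (difference 0.75 ± 0.07, limma adjusted p = 8.9e-05). In HCT116 FEN1 stood at 225 and 233 TPM with IgG and 176 and 181 TPM with H2O2. CCNE2 rose in both lines, by 0.60 in MDA-MB-231 and 0.58 in HCT116 (difference 0.02 ± 0.12, limma adjusted p = 0.93). KIF20A's difference between lines did not pass without HCT116 H2O2 replicate 2 or without MDA-MB-231 H2O2 replicate 1 (limma adjusted p from 0.052 to 0.057).

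Heat shock genes differed between the lines for 17 of 25, all with the higher change in MDA-MB-231. HSPA1B changed by 0.84 in MDA-MB-231 and -1.32 in HCT116 (difference 2.16 ± 0.11, limma adjusted p = 8.4e-07). HSPA1A changed by 0.81 in MDA-MB-231 and -1.203 in HCT116 (difference 2.01 ± 0.12, limma adjusted p = 3.4e-06). HSPA8 changed by 0.11 in MDA-MB-231 and -0.90 in HCT116 (difference 1.01 ± 0.07, limma adjusted p = 1.1e-05). In HCT116 HSPA1A stood at 45.2 and 39.9 TPM with IgG and 18.8 and 17 TPM with H2O2, so HSPA1A and HSPA1B rose in MDA-MB-231 and fell in HCT116. HSPA6 was at 0 and 0.13 TPM with IgG and 0 and 0 TPM with H2O2 in HCT116, so its difference between lines is nearly the change in MDA-MB-231 alone. The ATF4 and p53 lists went the other way. Of 34 ATF4 targets 27 differed, all with the lower change in MDA-MB-231, of which CHAC1 changed by 0.07 in MDA-MB-231 and 3.40 in HCT116 (difference -3.33 ± 0.14, limma adjusted p = 2.1e-07). TRIB3 changed by 0.29 in MDA-MB-231 and 2.10 in HCT116 (difference -1.81 ± 0.08, limma adjusted p = 6.1e-07). Of 27 p53 targets 23 differed, all lower in MDA-MB-231, and the list's median was 0.08 there and 0.95 in HCT116. CDKN1A rose in both lines, by 0.64 in MDA-MB-231 and 1.65 in HCT116 (difference -1.003 ± 0.06, limma adjusted p = 5e-06). Among the strongest differences with a lower change in MDA-MB-231 was LAMB3, a laminin chain, with 0.02 in MDA-MB-231 and 2.25 in HCT116 (difference -2.23 ± 0.07, limma adjusted p = 2.4e-08). DUSP5 changed by 0.20 in MDA-MB-231 and 1.94 in HCT116 (difference -1.74 ± 0.07, limma adjusted p = 1.1e-07). Of NRF2 targets, HMOX1 changed by 1.25 in MDA-MB-231 and 1.53 in HCT116 (difference -0.28 ± 0.09, limma adjusted p = 0.048). TXNRD1 changed by 0.52 in MDA-MB-231 and 1.40 in HCT116 (difference -0.88 ± 0.08, limma adjusted p = 0.00011). HMOX1's difference between lines did not pass whichever of the 8 libraries of these groups was left out (limma adjusted p from 0.0501 to 0.15).

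**Figure D5:**
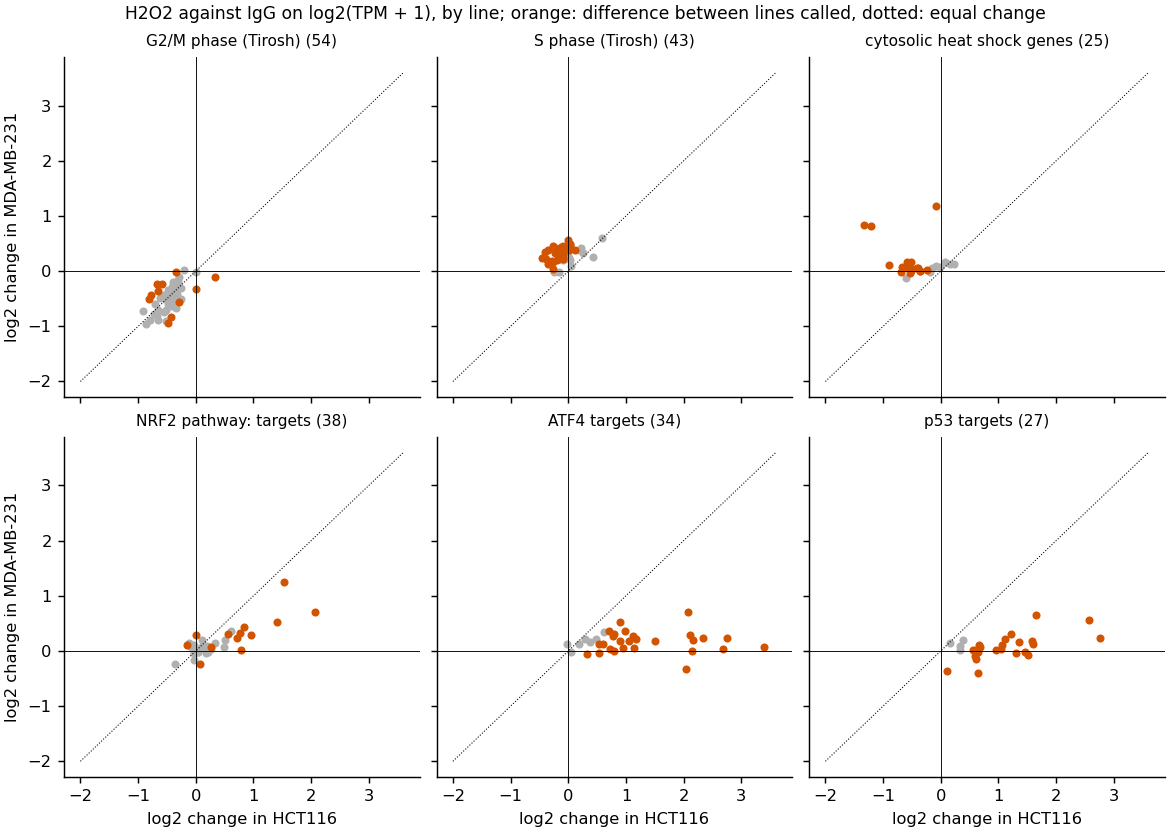
Each point is 1 gene of a list, with its log2 change with H2O2 in HCT116 on the x axis and in MDA-MB-231 on the y axis, on the log2(TPM + 1) scale; orange points passed the test of the difference between lines and the dotted line marks equal change. G2/M genes lie along the dotted line, S phase and heat shock genes lie above it, and ATF4 and p53 targets spread to the right at little change in MDA-MB-231.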

How the data were processed

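RNA of 12 libraries (2 lines, 3 treatments, 2 libraries per group) was measured, and 4 of them are compared here. The authors deposited 1 table of TPM per gene symbol, given to 2 decimals. Tools listed in the submitters' processing notes are bcl2fastq 2.20, STAR and RSEM, with the build hg19 and no role or order. Other versions, the annotation and the strand setting are not stated there. Depth is unknown, since TPM keep none.

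Genes had to reach 1 TPM in 2 or more of the 12 libraries (13956 of 23686, including 54 small RNA genes that entered the fit and are not reported). On log2(TPM + 1), limma 3.58.1 (R 4.3.3) fitted 6 group means with a variance trend (6 residual degrees of freedom, 4.63 prior), two-sided, with Benjamini-Hochberg adjustment over all genes kept. The fit was also run on simulated data with 1 spread per gene, pooled over the 6 groups, and noise drawn independently for each library. That run cannot show whether the calls hold if replicate libraries are technical. Alternatives were 2 other pseudocounts, 2 filters, 2 scalings, a replicate block, fewer libraries and each library left out. Figures used Python and matplotlib.

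Gene lists come from textbook knowledge and published S phase and G2/M lists. The members, lists and tests were chosen with earlier results of these data known. Named genes were, by rule, the 15 largest called changes per direction with 5 TPM or more on average in a group, for each list up to 4 called genes of smallest p and up to 2 others of highest level, a fixed set, and the 5 strongest differences between lines per direction; of these, the text gives those with a role in a comparison. A few genes named by these rules are not reported here. Promoter windows are RefSeq's, build GRCh38.p14, matched by symbol, and carry no coordinate of the hg19 table.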

Additional observations from a re-analysis of the deposited data

Results flagged for a closer look

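The change with H2O2 differed between MDA-MB-231 and HCT116 for 80 of the genes named above, by limma's interaction test at an adjusted p under 0.05, the difference being higher in MDA-MB-231 for 39 and lower for 41. Of all genes tested, 17.4% did so. Genes were named partly for their change in MDA-MB-231 or for this difference, so the count is not a test against that share. The values below, in brackets, are the log2 change in MDA-MB-231 minus that in HCT116 on the log2(TPM + 1) scale. 

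Among replication and G1/S genes, the change in MDA-MB-231 was higher than in HCT116 for GINS2 (0.75), FEN1 (0.73), CLSPN (0.72), GINS3 (0.58), EXO1 (0.57), MCM2 (0.57), RRM2 (0.55), TYMS (0.46), CDC25A (0.41), PARP1 (0.40), LIG1 (0.35), CDKN2C (0.34), BRCA1 (0.32), MCM6 (0.30), APEX1 (0.28) and CDC6 (0.27). Among mitotic genes, the change in MDA-MB-231 was higher than in HCT116 for TUBB4B (0.45), MYBL2 (0.43), CDCA5 (0.39), FOXM1 (0.35), BUB1 (0.34), AURKB (0.34) and DSN1 (0.28). It was lower for KIF20A (-0.52), NEK2 (-0.47), CCNB2 (-0.39) and KIF2C (-0.26). Among chaperones of the cytosol, the endoplasmic reticulum and the mitochondria, the change in MDA-MB-231 was higher than in HCT116 for HSPA1B (2.16), HSPA1A (2.01), HSPA6 (1.27), HSPA8 (1.01), DNAJB1 (0.75), HSPE1 (0.49), CALR (0.38), HSPD1 (0.28) and HSP90AB1 (0.25). Among p53, NRF2, ATF4 and autophagy genes, the change in MDA-MB-231 was higher than in HCT116 for GSR (0.28). It was lower for CHAC1 (-3.33), DDIT3 (-2.64), GDF15 (-2.003), TRIB3 (-1.81), SLC7A11 (-1.37), CDKN1A (-1.003), MDM2 (-0.95), TXNRD1 (-0.88), SLC3A2 (-0.72), ATF4 (-0.62), GABARAPL1 (-0.60), CCNG1 (-0.46), SRXN1 (-0.43), MT2A (-0.41), GCLC (-0.40), MTHFD2 (-0.37), AARS (-0.34), HMOX1 (-0.28), SQSTM1 (-0.25) and NQO1 (-0.20). Among cytokine, early response and MAP kinase feedback genes, the change in MDA-MB-231 was higher than in HCT116 for CSF3 (0.54) and IL6 (0.52). It was lower for IL8 (-2.20), DUSP5 (-1.74), JUN (-1.10), DUSP6 (-0.81), DUSP1 (-0.73), TNIP1 (-0.58) and CYR61 (-0.53). Among genes of the cytoskeleton, adhesion, growth factors and metabolism, the change in MDA-MB-231 was higher than in HCT116 for TUBB (0.48). It was lower for LAMB3 (-2.23), VEGFA (-0.92), BCL2L1 (-0.77), AJUBA (-0.67), TGFB2 (-0.48) and VIM (-0.28). Outside the lists, the change in MDA-MB-231 was higher than in HCT116 for DEFB103B (1.35), PINLYP (0.98) and CD83 (0.44). It was lower for SHISA3 (-1.14), ALPP (-0.85), TMEM71 (-0.82) and PIF1 (-0.54). For DEFB103B, SHISA3 and TMEM71 the change in HCT116 was 0.00, so the difference is the change in MDA-MB-231 alone. HSPA6 stood under 1 TPM in the IgG and H2O2 libraries of HCT116 and changed by -0.09 there. Libraries near 0 TPM vary little and enter the shared spread, so p-values of such a gene can be too small. Its difference does not tell a differing response from a gene that is not expressed in HCT116.

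With 1 of the 8 IgG and H2O2 libraries of both lines left out in turn, 55 of these differences passed the test each time. HMOX1 passed in none of the 8 fits, and AURKB, BRCA1, BUB1, CCNB2, CCNG1, CD83, CDC6, CDKN2C, CSF3, DSN1, FOXM1, GCLC, GSR, HSP90AB1, HSPD1, KIF20A, KIF2C, LIG1, MCM6, MTHFD2, NQO1, SQSTM1, TGFB2 and VIM missed the threshold in 1 or more of them, with limma adjusted p from 0.0501 to 0.15 over the fits in which they missed it. Line and medium cannot be told apart in these differences.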

How the results depend on the processing

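Under the other pseudocounts (0.1 and 0.5), a mean TPM of at least 5, no filter on low values and both rescalings, the counts of raised and lowered genes, of raised S phase genes and of lowered G2/M genes stayed within 1.5 times their main values. No named gene that was called in the main fit or in the other fit changed direction. Directions of named genes called in neither fit were not compared. Changes near 0 can turn: the oxidative phosphorylation list's median went from 0.02 to -0.02 under median-of-ratios. Calls of the 188 named genes were lost for 9 with a pseudocount of 0.1 (AJUBA, ALPP, ANKRD1, CSF3, HSD17B7, IL6, PINLYP, TGFB2 and TRAF3IP2-AS1) and for 4 with 0.5 (ANKRD1, PINLYP, TGFB2 and TRAF3IP2-AS1). No filter on low values ended 11 (AJUBA, ANKRD1, CCNG1, CDCA5, GLA, HSD17B7, MT1E, MVK, TGFB2, TRAF3IP2-AS1 and TUBB4B). Median-of-ratios scaling ended 5 (ALAS1, DUSP5, GLA, MT1E and TRAF3IP2-AS1) and brought 3 others past the threshold, and quantile scaling ended 5 (ANKRD1, DUSP5, GLA, HSD17B7 and TRAF3IP2-AS1). The lines and groups that enter the fit mattered more. With the 6 MDA-MB-231 libraries alone, 29 genes were higher and 55 lower, with 5 S phase genes higher and 22 G2/M genes lower. With the 4 compared libraries alone, which leave 2 residual degrees of freedom, limma called 1 gene higher and 4 lower, with 0 S phase and 0 G2/M genes. Fewer samples enter both fits. Leaving out 1 of the 4 libraries left 44 to 102 genes higher and 71 to 108 lower, 11 to 16 S phase genes higher and 29 to 39 G2/M genes lower; the remaining library of that group was then assumed to vary like the other groups. For the difference between lines the ranges were 585 to 1359 with a higher change in MDA-MB-231 and 662 to 998 with a lower one, and for anti-Hsp60N with H2O2 against IgG they were 54 to 141 higher and 86 to 222 lower. With the replicate number as a block (replicate block), 118 genes were higher and 154 lower. Libraries of different treatments share a replicate number, but the labels do not say what it stands for. Deviations of same-numbered MDA-MB-231 libraries correlated at 0.01 to 0.16 across genes. Among genes with a mean TPM of at least 5 the range was -0.01 to 0.22, with 0.22 for the IgG and H2O2 groups compared here. A pairing can thus not be excluded. Under the block 10 of the 188 named genes lost their calls (AJUBA, ANKRD1, CCNG1, CDCA5, DUSP5, GLA, HSD17B7, MVK, TRAF3IP2-AS1 and TRIB3). With the 6 MDA-MB-231 libraries alone 47 did, and with the 4 alone 82. TPM keep no depth, so what depth limits cannot be given.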
